A study of Homo sapiens with 4 samples.

Results

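The genes described here are 10 genes of the canonical Wnt and β-catenin pathway: BCL9, BCL9L, CTNNB1, APC, AXIN1, AXIN2, LRP5, LRP6, FZD7 and TCF7L2. They were chosen from pathway knowledge, but with the peak list already known, and the great length of a BCL9L peak was one of the values they were chosen by. Of the 10 genes, 8 had at least 1 m6A peak, with 18 peaks among them, out of 20261 peaks on 10140 genes in the whole list. LRP6 and TCF7L2 had none. The libraries came from MDA-MB-231 cells, a human triple negative breast cancer line, and all carried the label shNS, whose meaning the labels do not give. Poly(A) RNA was fragmented, and 2 libraries were made after immunoprecipitation (IP) with an antibody against N6-methyladenosine and 2 from input RNA. Both IP libraries name YTHDC1 in their treatment field, while their titles and protocol describe m6A-seq, and they were read as m6A libraries. The authors combined all 4 libraries into 1 list, with 1 score for each peak, so no value below has a spread over replicates or an error, no neighbours in an order of values can be told apart beyond error, and the read depth behind a peak is unknown.

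In canonical Wnt signaling, a Wnt ligand binds a Frizzled receptor and the co-receptors LRP5 or LRP6. Without the ligand, a destruction complex built on the scaffolds APC and AXIN1 or AXIN2 marks β-catenin, the product of CTNNB1, for degradation. With the ligand, β-catenin accumulates, enters the nucleus and joins TCF and LEF factors, and BCL9 or BCL9L links it to the transcription machinery. m6A is a methyl mark on adenosines of mRNA, placed within a short sequence context and often found near stop codons and in long internal exons, and it is bound by readers such as YTHDC1.

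The share of members in the list stands beside a high background. A peak was listed for 40.8% of the 20056 protein-coding genes in RefSeq. The list is unequal between strands, with 72.3% of peaks on minus-strand genes. Where the strand of a protein-coding gene could be read from the promoter table, a peak was listed for 29.3% on the plus strand and for 55.6% of the minus-strand genes. Each member is therefore set beside genes of its own strand. Nothing is read from a difference in score, or in number or length of peaks, between genes on opposite strands. BCL9, CTNNB1, APC, LRP5 and FZD7 lie on the plus strand, and BCL9L, AXIN1 and AXIN2 on the minus strand. Since the members were chosen with their peaks known, nothing is read from the number that had one. The list gives no expression either, so the missing peaks of LRP6, a co-receptor, and of TCF7L2, a DNA-binding partner of β-catenin, do not separate an unmethylated transcript from a weakly expressed one. For the same reason the cell line could not be checked by its markers: VIM had 1 peak and EGFR 2, CD44 and AXL had none, and of the genes that should be low in this line ERBB2 had 3 peaks and ESR1, PGR and CDH1 none.

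The peak of CTNNB1 is the one member peak that reached a promoter window, and its sequence is shown for that reason. RefSeq promoter windows (GRCh38.p14, from 250 bases before a gene's start to 50 after it) were at hand for 6 of the 10 members, 9 windows in all. The stretch below runs from chr3:41199255-41199477 on the plus strand, 223 bases. The capitals at its right end are the first 30 bases of the peak, and the capitals inside it mark a GGACT, a common form of the m6A sequence context.

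CTNNB1: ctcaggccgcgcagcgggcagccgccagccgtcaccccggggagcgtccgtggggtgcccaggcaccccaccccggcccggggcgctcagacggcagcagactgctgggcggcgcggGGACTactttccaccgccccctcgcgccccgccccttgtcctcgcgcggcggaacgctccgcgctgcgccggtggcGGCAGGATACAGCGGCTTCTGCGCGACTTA

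The GGACT lay at 41199372 to 41199376, outside the peak and separated from it by 71 bases. That is before the RefSeq start of the gene at 41199505, so this match is not part of the RefSeq transcript. A match on the opposite strand is not part of it either. The 107 bases of the peak that fell in the window held no GGACT on either strand, and neither GGACA nor GGACC. The other 74 bases of the peak could not be searched. Other forms of the m6A sequence context were not searched, so their absence from the peak is not shown. In the whole window GGACA was found 1 time on the opposite strand and GGACC on neither. These motifs are common: GGACT was found on the sense strand of 25.3% of all 35116 windows of this length, GGACA in 25.4% and GGACC in 27.1%. On the opposite strand the shares were 25.3%, 24.9% and 28.1%. A peak of the same gene overlapped 5.53% of all windows, and 18.3% of the 10623 windows that belong to genes in the list.

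The nuclear cofactor BCL9L, which tethers β-catenin to the Pygopus proteins, had the most peaks and the most peak bases of the members. Its 4 peaks on chromosome 11 held 3874 spliced bases, which is 41.3% of the 9388 peak bases of all members. This order and share cross the strands and rest mostly on the long peak used to choose the members, so they are a description. From the 5′ end, the first peak was 91 bases long (118925518 to 118925608) and began 318 bases from the start of the gene. Its score of 0.0004 was the weakest of the gene. The score is the authors' deposited value for the enrichment of IP over input, read as a p-value, so that smaller scores mark stronger peaks. The second peak (118908401 to 118909929) joined blocks of 16 and 255 bases across a gap of 1258 bases and had a score of 4.0e-51. A peak in several blocks is one that the caller ran across exon borders, so its gaps stand for introns. The third peak (118899124 to 118903063) was listed at a score of 0 and had 3031 spliced bases in blocks of 74, 2290, 282 and 385 bases. The gaps between them were short, at 81, 420 and 408 bases. The fourth peak (118898495 to 118898975) had 481 bases and a score of 1.0e-189, and it began 148 bases after the third.

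The last 2 peaks of BCL9L thus formed a stretch, broken by these short gaps, from 76.74% to 92.08% of the gene span. It stopped 2359 bases short of the 3′ end. By spliced length the third peak ranked 4 of 20261, between peaks of MKI67 (3324 bases) and ANKRD11 (3000 bases). Its block of 2290 bases ranked 18 among the blocks of all peaks, and 35 peaks of the list had a block of 2000 bases or more. This length was used to choose the members and is a description. Of the 6624 minus-strand genes in the list, 0.0604% had a longest peak at least as long and 0.543% had as many peak bases in total. Of the same genes, 15.2% had 4 or more peaks and 5.87% had a peak ranked at least as strong. Scores listed at 0 are tied at a −log10 of 323, and the last share also includes nonzero scores at this limit. Of minus-strand peaks, 2.95% reached it and 2.92% were listed at 0.

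BCL9, the paralog of BCL9L, had 3 peaks on chromosome 1, all in 1 block and all in the last 10% of the gene span. They were 210 bases (147619274 to 147619483, score 0.00014), 180 bases (147620528 to 147620707, score 8.3e-05) and 509 bases long (147624454 to 147624962, score 3.0e-07). The longest was also the strongest, and it stopped 1254 bases short of the 3′ end. Together they held 899 bases. Among the 3516 plus-strand genes in the list, 13.9% had at least 3 peaks, 8.05% had a longest peak at least as long and 46.7% had a score at least as small. Within its own strand, BCL9 was thus in the upper part of the genes by length and near the middle by score. In BCL9 the peaks were separated by 1044 and 3746 bases without a peak. In BCL9L the gaps from the first peak to the last were 15588, 5337 and 148 bases, so the last pair alone lay close together. BCL9L also had peaks at the start and in the middle of the gene, where BCL9 had none. The peak at the start was the weakest of BCL9L (score 0.0004). BCL9 and BCL9L lie on opposite strands, where peaks were listed at unequal rates, so nothing is read from these differences.

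**Figure D1:**
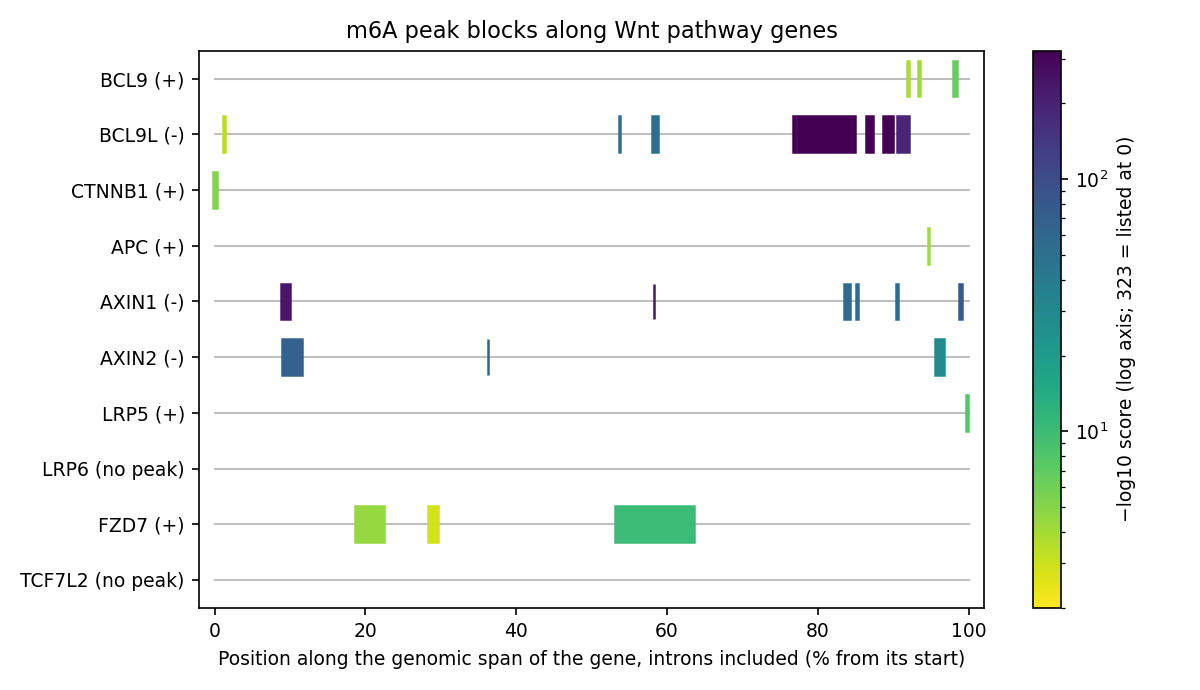
Blocks of the 18 m6A peaks along the 10 genes. The x axis gives the position along the RefSeq span of the gene in percent, from its start in transcript direction and with introns included, each row is a gene with its strand, each coloured bar is a block (bars narrower than their outline appear as lines), and the colour gives the −log10 score on a log scale. BCL9L carries the long dark stretch between 76.74% and 92.08% of its span, AXIN1 and AXIN2 each have a block near 9%, CTNNB1 has its peak at the start, and LRP6 and TCF7L2 are empty.

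CTNNB1 encodes β-catenin itself, the transcriptional co-activator of the pathway. It had 1 peak of 181 bases (chromosome 3, 41199448 to 41199628, score 7.8e-06). The peak began 57 bases before the RefSeq start of the gene and ended 123 bases after it, so it covered the 5′ end of the gene. Its distance from the 3′ end of the gene span was 40815 bases, introns included. Among plus-strand genes in the list 57.3% had a score at least as small and 59.7% a longest peak at least as long. A position at the start was less common in the list than one at the end: over protein-coding genes on the plus strand, 16.7% of 4600 peaks had their midpoint in the first 10% of the span and 35.4% in the last 10%.

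The scaffolds of the destruction complex divided by strand. APC, the large tumor suppressor that binds β-catenin, had 1 peak of 151 bases on chromosome 5 (112838716 to 112838866, score 7.9e-05). It lay at 94.6% of the span, 7373 bases before the 3′ end. It was the shortest total among the members with a peak, and 70.8% of plus-strand genes in the list had a score at least as small.

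AXIN1, the scaffold that brings the kinases to β-catenin, had 3 peaks with 2007 bases on chromosome 16. The first (314651 to 347012, score 1.0e-241) was the strongest and held 898 bases, 865 of them in 1 block that began 5711 bases from the start of the gene, followed after a gap of 31464 bases by a block of 33 bases. The second (293537 to 298207, score 6.3e-56) ran over 3 blocks of 486, 171 and 182 bases. The third (288008 to 288277, score 6.3e-78) was 270 bases long and ended 568 bases before the 3′ end. In AXIN1 the strongest peak was thus the one nearest to the 5′ end. Of minus-strand genes in the list, 8.47% had a score at least as small and 5.66% as many peak bases.

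AXIN2, a paralog of AXIN1 and itself a textbook target of β-catenin and TCF, had 2 peaks with 1316 bases on chromosome 17. The first (65549657 to 65558698, score 2.0e-68) held 897 bases, with a block of 893 bases that began 2950 bases from the start of the gene and a block of 4 bases after a gap of 8145 bases. The second (65529638 to 65530056, score 3.2e-29) was 419 bases long and ended 1075 bases before the 3′ end. By score, 28.5% of minus-strand genes in the list were at least as strong.

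The layout of the peaks in AXIN1 and AXIN2 was alike in part. In both genes the strongest peak was the first from the 5′ end, it held 898 and 897 spliced bases, and its main block began at 8.748% of the span in AXIN1 and 8.916% in AXIN2. Introns are part of these percentages. In bases, the main blocks began 5711 and 2950 from the start of the gene, in spans of 65284 and 33086 bases. In both, that block was followed by a long gap and by a very short block, so the peak just passed an exon border. Of minus-strand genes, 10.6% had a longest peak as long as either. In both, the last peak lay close to the 3′ end, at 98.9% and 96.1% of the span. They differed in the second peak of AXIN1, which had no counterpart in AXIN2. Both genes lie on the minus strand, so a direct comparison of their scores does not cross strands, and that of the first peak was smaller in AXIN1 (1.0e-241) than in AXIN2 (2.0e-68). Without replicates this difference could not be tested.

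**Figure D2:**
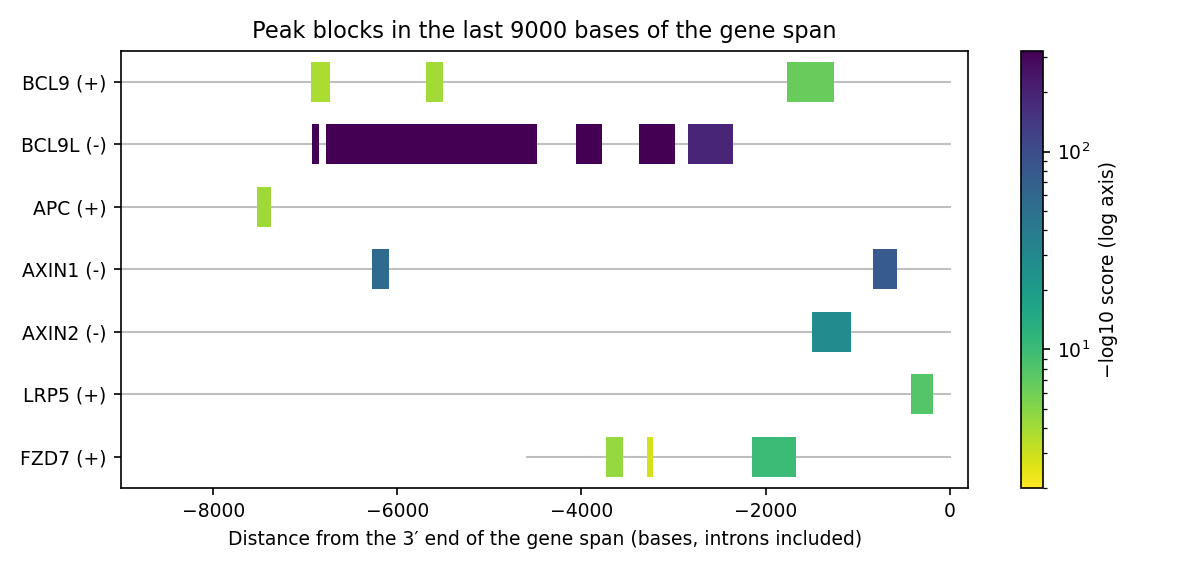
Peak blocks in the last 9000 bases of the gene span for the members with a peak there. The x axis gives the distance in bases from the 3′ end of the RefSeq span, introns included, grey lines mark the span (FZD7 is shorter than the window), bars are blocks to scale, and the colour gives the −log10 score. The last peaks of BCL9L are broken only by short gaps and stop 2359 bases before the end. The LRP5 peak stops 179 bases before it, and the last peaks of AXIN1, AXIN2 and BCL9 stop 568, 1075 and 1254 bases before it.

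Among the receptors, LRP5, a co-receptor for Wnt ligands, had 1 peak of 240 bases on chromosome 11 (68448857 to 68449096, score 1.7e-08). It lay at 99.8% of the span and ended 179 bases before the 3′ end, the closest of all member peaks. Of plus-strand genes in the list, 39.2% had a score at least as small. Its paralog LRP6 had no peak, so no second set of values could be placed beside it.

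FZD7, a Frizzled receptor encoded without introns, had 3 peaks on chromosome 2, and their positions can be read directly along the transcript of 4587 bases. The first was 180 bases long (202034707 to 202034886, score 3.7e-05) and began 852 bases from the start. The second was 61 bases long (202035155 to 202035215) with a score of 0.0015, the weakest of the plus-strand member peaks. The third was 479 bases long (202036292 to 202036770, score 1.0e-10), the strongest of the plus-strand members, and it ended 1671 bases before the 3′ end. None lay in the first or the last 10% of the gene. Among plus-strand genes in the list, 13.9% had at least 3 peaks, 9.5% a longest peak at least as long and 31.8% a score at least as small.

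Over all members, 9 peaks were on each strand, with 2191 bases on plus-strand genes and 7197 on minus-strand ones. In 1 block lay 13 peaks, and the other 5 all belonged to BCL9L, AXIN1 and AXIN2. The list median score was 5.2e-08, and a score no larger than this was reached by 8 of the 9 minus-strand peaks and 2 of the 9 plus-strand peaks, where the shares over all peaks were 56.7% and 32.6%. Counted by gene, 5 of the 10 members had such a peak (BCL9L, AXIN1, AXIN2, LRP5 and FZD7), beside 26.6% of protein-coding genes. That share pools both strands, and the members were chosen with their peaks known, so nothing is read from this count. On the plus strand the midpoint fell in the last 10% of the span for 5 of 9 member peaks (55.6%), beside 35.4% of protein-coding peaks of that strand, and in the first 10% for 1. On the minus strand it did so for 3 of 9 (33.3%), beside 37.5%, and in the first 10% for 2, beside 16.1%. The strands thus lay on opposite sides of their backgrounds, with too few peaks to read a direction. No member peak overlapped a peak on the opposite strand, which 10% of all peaks in the list did, and no other gene of the RefSeq table overlapped a member peak.

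**Figure D3:**
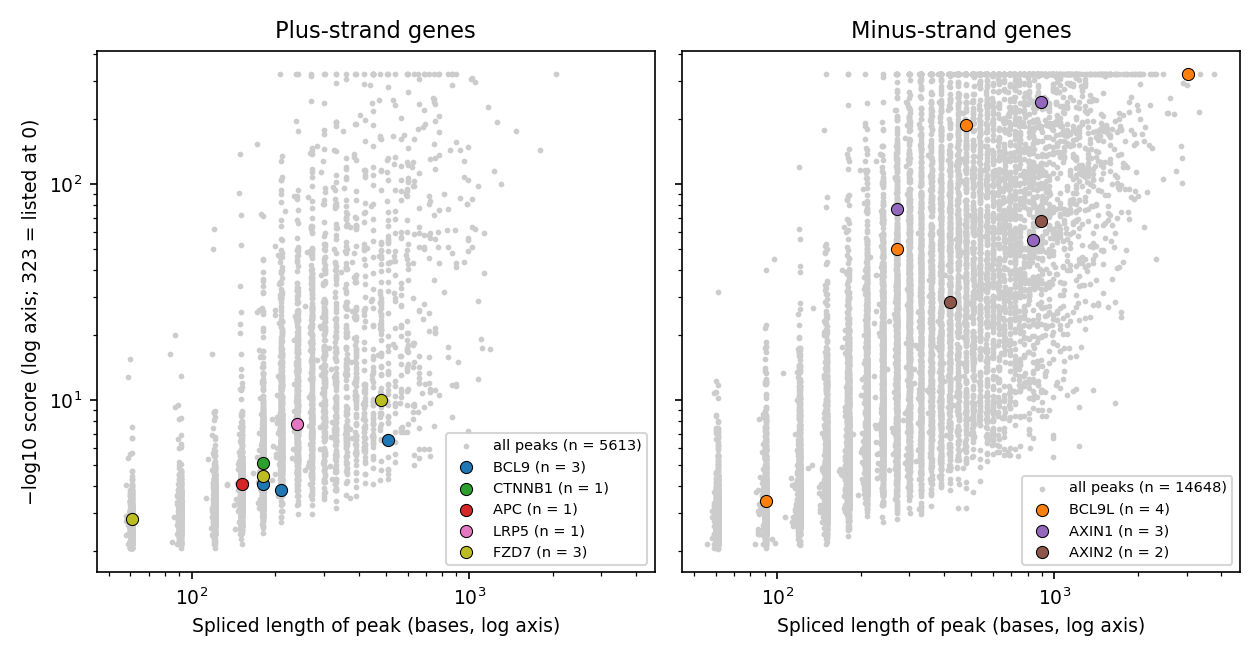
Spliced length in bases (x) against −log10 score (y) for all peaks of the list (grey) and for the peaks of the 8 members (coloured), plus-strand genes on the left and minus-strand genes on the right, both axes logarithmic, with scores listed as 0 drawn at 323. The longest BCL9L peak sits at the upper right edge of the minus-strand panel with 3031 bases. In the plus-strand panel the member peaks stay at or under a −log10 score of 10. Scores are not compared between the panels, since the list is unequal between strands.

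To place the members within the pathway, a wider list of 91 Wnt genes in 11 roles, the members included, was counted. A peak was listed for 45 of them (49.5%), 28 of them minus-strand and 17 plus-strand genes, and for 37 of the 81 genes (45.7%) that are not members. These shares stand beside the 40.8% of all protein-coding genes. The numbers differed by role. Receptors had a peak in 10 of 12 genes and the destruction complex in 8 of 10. Membrane inhibitors, Dishevelled with its antagonists, and nuclear repressors had one in 4 of 6 each, and nuclear effectors in 6 of 9. Ligands had one in 5 of 19, secreted inhibitors in 2 of 12 and R-spondins with their receptors in 1 of 7. Neither tankyrase gene had a peak. The list holds no expression values to set beside these counts. Each count by role also pools both strands, on which 29.3% (plus) and 55.6% (minus) of protein-coding genes had a peak. The strand of genes without a peak was not counted, so no role was set beside its own strands. Roles hold few genes and were not tested, so nothing is read from the differences between them.

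In each role with a listed gene, the one with the most peaks and the one with the smallest score are named, and all of them lie on the minus strand, so this order carries the difference between strands and is no comparison with plus-strand genes. In the destruction complex AMER1, an APC-binding membrane protein, had the most peaks, with 8 peaks, 2221 bases and a smallest score of 5.0e-46, and AXIN1 had the smallest score. BTRC and FBXW11, which recognise marked β-catenin for degradation, had no peak. Among receptors FZD8 was named by both measures, with 5 peaks, 2362 bases and a smallest score of 1.0e-244, and FZD10 joined LRP6 without a peak. Among nuclear effectors BCL9L was named by both measures, and TCF7 and TCF7L1 joined TCF7L2 without a peak, so that of the 4 TCF and LEF genes LEF1 was the one listed. In the other roles the named genes were WNT7B (3 peaks, 1.0e-179) among ligands, WLS (2 peaks, 2.0e-65), which carries ligands to the cell surface, LGR4 (2 peaks, 1.0e-139), an R-spondin receptor, and SFRP1 (2 peaks, 2.4e-06), a secreted inhibitor. RNF43 (5 peaks, 1.0e-20), which removes Frizzled receptors from the membrane, and DVL1 (4 peaks, 1.3e-34), which relays the signal from them, were named for theirs. By number of peaks WNT7B tied with WNT5A and RNF43 tied with TRABD2A, and the gene with more peak bases was named. Of the nuclear repressors, CHD8 had the most peaks (5, with a smallest score of 1.0e-129) and TLE3 the smallest score (4 peaks, 1.0e-147).

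By strand, the 25 minus-strand genes of the wider list that had a peak and are not members had a median of 3 peaks, a median longest peak of 510 bases and a median smallest score of 7.9e-46. The same medians over all 6624 minus-strand genes in the list were 2 peaks, 331 bases and 4.0e-22. The 12 plus-strand genes had medians of 1 peak, 195 bases and 3.5e-06, beside 1 peak, 210 bases and 1.0e-06 over all 3516 plus-strand genes. Among minus-strand genes, the wider Wnt genes thus had more and longer peaks and smaller scores than the list medians. Among plus-strand genes they had the same number of peaks, slightly shorter and with a larger score. The list medians include genes that are not protein-coding, and the wider list was written with earlier results of these data known. Beside protein-coding minus-strand genes alone, the share with a score at least as small was 7.03% for BCL9L, 10.2% for AXIN1 and 33.6% for AXIN2, each larger than over all minus-strand genes. For plus-strand members this share changed little. The difference from the list medians was not tested. The 5 plus-strand members had medians of 1 peak, 240 bases and 3.0e-07, and the 3 minus-strand members of 3 peaks, 898 bases and 1.0e-241.

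**Figure D4:**
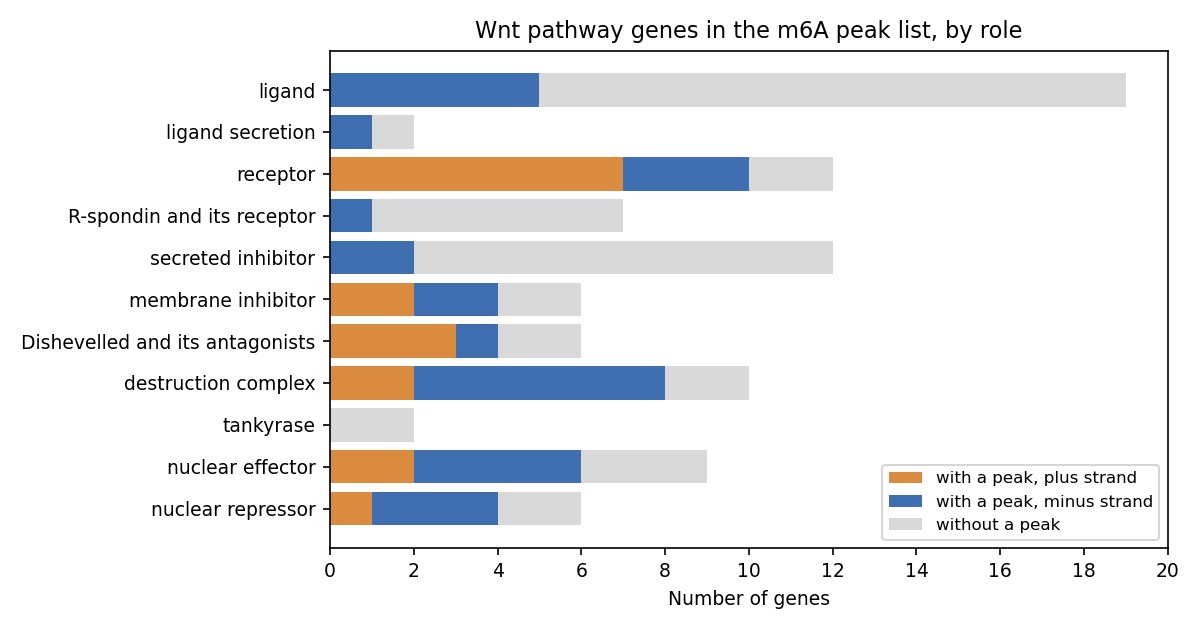
Number of genes (x) in each of the 11 roles of the wider Wnt list (rows) with a plus-strand peak, with a minus-strand peak and without a peak. Receptors (10 of 12) and the destruction complex (8 of 10) are mostly filled, ligands (5 of 19) and secreted inhibitors (2 of 12) are mostly without a peak, and the ligands with a peak are all on the minus strand.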

How the data were processed

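m6A-seq peaks came from 2 IP and 2 input libraries of MDA-MB-231 cells, grouped by their titles. The authors mapped reads with STAR to GENCODE v33 (hg38 per the labels), called peaks with exomePeak at default settings and filtered them by fold enrichment and FDR. The deposited score was read as a p-value of IP against input. An FDR would also be possible, since the header leaves this unsaid. Scores of 0 were ranked together at a −log10 of 323. Replicates had been combined before deposit, so depth is unknown and no test was run.

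Symbols were obtained for 10103 of 10140 gene IDs. Gene spans, biotypes and promoter windows came from RefSeq on GRCh38.p14. Coordinates are the deposited ones, counted from 1. Distances to the start or end of a gene and gaps between peaks or blocks are genomic, introns included. Gene ends may not be the same in RefSeq and GENCODE. Exons, coding sequence and UTRs were not used here. The position of a peak is its midpoint over spliced bases, as a percent of the gene span. Peaks overlapped when their blocks shared at least 1 base. Named genes of the wider list were, in each role, those with the most peaks and with the smallest score, and genes without a peak in roles of up to 12 genes. The members and lists were chosen with earlier results of these data known. Alternatives covered the score limit, merging, the first part of the list (the chromosomes start again within it), opposite-strand overlaps and the definition of position and rank. Functions were tested on simulated data. Python 3.11.15, pandas 2.3.3 and matplotlib 3.10.9 were used.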

Additional observations from a re-analysis of the deposited data

How the results depend on the processing

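Of 32 comparisons with an alternative setting, 24 stayed within 1.5 times the reported count and 8 did not, and all 8 came from a limit on the score, which removes peaks by construction. With peaks at or under the list median score, 5 of the 8 members (BCL9, CTNNB1 and APC dropped out), 10 of the 18 member peaks, 4 of the 8 member peaks in the last 10% of the span and 1 of the 2 paralog pairs with a peak in both genes were left. With a score of at most 1e-10, 4 members (LRP5 dropped out too), 9 peaks, 29 of the 45 genes of the wider list and 1 pair were left. Merging, the first part of the list alone and removal of peaks with an opposite-strand overlap left the numbers of members, member peaks, pairs and wider-list genes as they were. The settings for paralog pairs, the genomic midpoint, and the ranks by number of peaks and by longest peak were chosen after seeing the data. No paired analysis was possible because each peak has 1 score over all 4 libraries combined, and for the same reason no replicate could be left out.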

Other observations

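Peaks of the wider Wnt list outside the members were also placed along their genes. Of 100 peaks placed on the span of their gene, 29 (29%) had their midpoint in the last 10% and 20 (20%) in the first 10%, with a median position of 74.1% of the span, beside 36.9%, 16.2% and 79.1% over all protein-coding peaks. This difference was not tested.

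Of the 119 peaks of the wider list, the 18 member peaks included, 8 overlapped a peak on the opposite strand, in 5 genes, none of them a member. Over all peaks of the list the share was 10%, so nothing is read from this count. The overlaps below were named after their values were seen. The FZD4 peak of 1167 bases (score 3.2e-26) shared 600 bases with a peak of PRSS23 (1.6e-17). A KREMEN2 peak shared 270 bases with a peak of PKMYT1 that had the same score of 1.0e-11, and an RNF43 peak of 121 bases shared all its bases with a TSPOAP1-AS1 peak that also had the same score, 0.00014. The strongest APC2 peak (3.2e-60) shared 11 bases with a peak of C19orf25 (3.2e-38). A peak of FZD8 shared 151 bases with one of a gene without a symbol. The list alone does not say to which of the paired genes such a peak belongs.

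Genes of the same strand were ranked by number of peaks, longest peak and smallest score, and the sum of the rank differences, in percent of the genes on the strand, was used as a measure of likeness. The nearest genes were NUMA1 (0.045) and MBD3 (0.43) for BCL9L, KCNG1 (0.5) and XPC (1.2) for AXIN1, and STK32C (0.21) and BRWD1 (1.7) for AXIN2, over 6598 minus-strand genes with a symbol. On the plus strand, with 3505 such genes, they were MAP3K4 (3.1) and TRIB1 (4.2) for BCL9, TIAM2 (1.2) and SPG7 (1.3) for FZD7, and NIPA1 (0.13) and LIG3 (1.2) for LRP5. For CTNNB1 they were HDAC6 (0.16) and MPZL1 (0.24), and for APC, with its 1 peak of 151 bases, CDHR1 and GID4 had the same values (0).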
